A study of Drosophila melanogaster with 2 samples.

Results

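The proteins of the small subunit of the cytosolic ribosome are encoded in Drosophila melanogaster by genes named RpS with a number, plus stubarista (sta). They were chosen by symbol, with earlier results of these data known. The group holds the protein-coding genes of the Ensembl annotation whose symbol starts with RpS and a digit, together with sta. This gave 39 genes of 13945 protein-coding genes, and genes of the mitochondrial ribosome (mRpS) were not among them. Binding of the CG7271 protein was mapped by chromatin immunoprecipitation and sequencing (ChIP-seq) in whole embryos collected 0 to 4 hours after egg laying. The embryos belonged to a transgenic fly line in which CG7271 carries GFP at its C terminus, and per the labels the immunoprecipitation used an antibody to GFP, although the antibody field names CG7271. There were 2 biological replicates, numbered 2 and 3, from separate biosamples of that line, and all values below come from this single group. The promoter that drives the fusion protein is not given in the labels, and whole embryos mix many cell types. A control library was used by the authors when they called peaks and was not analysed here, so each value is a peak's place within a list and not a difference between conditions.

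The small subunit binds the messenger RNA and decodes it, and its proteins fold and stabilise the ribosomal RNA around the decoding centre. Cells need these proteins in nearly equal amounts, and in flies the loss of a single copy of many of the genes gives the Minute phenotype of slow growth and short bristles. Most promoters of these genes in flies start transcription within a stretch of pyrimidines, the TCT or polypyrimidine initiator, in place of the common initiator. The DRE sequence, bound by Dref, and the sequence bound by M1BP are also known from ribosomal protein promoters in flies. Early embryos inherit ribosomes from the mother and begin to transcribe their own ribosomal protein genes as the zygotic genome is switched on.

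The promoters below surround the transcription start site (TSS), near which the highest peaks of most members lay. RpS27, RpS25 and RpS4 are shown because they carried the highest peaks, and the others because they belong to pairs of duplicated genes. RpS15Ab, the sister gene of RpS15Aa, is not printed. Each sequence runs 5′ to 3′ on the strand of the gene, from 70 bases before the annotated TSS to 30 bases from it onwards, in the dm6 assembly, read from the RefSeq copy of that assembly. Where a gene has several 5′ ends, the end nearest its highest pooled summit was taken. Capitals mark the longest unbroken run of C and T that begins at most 10 bp from the TSS.
RpS27 (chr3R:25247443-25247542, minus strand): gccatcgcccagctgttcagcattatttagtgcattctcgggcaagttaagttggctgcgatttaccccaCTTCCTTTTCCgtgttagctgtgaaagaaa
RpS25 (chr3R:11216258-11216357, minus strand): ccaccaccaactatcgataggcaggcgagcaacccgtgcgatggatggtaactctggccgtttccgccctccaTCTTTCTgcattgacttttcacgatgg
RpS4 (chr3L:13041731-13041830, plus strand): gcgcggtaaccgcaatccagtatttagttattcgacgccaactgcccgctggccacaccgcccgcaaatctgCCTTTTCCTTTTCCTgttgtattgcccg
RpS10b (chrX:19597970-19598069, plus strand): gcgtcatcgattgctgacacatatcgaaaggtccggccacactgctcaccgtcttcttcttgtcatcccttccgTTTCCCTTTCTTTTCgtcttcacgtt
RpS10a (chr3R:27652690-27652789, plus strand): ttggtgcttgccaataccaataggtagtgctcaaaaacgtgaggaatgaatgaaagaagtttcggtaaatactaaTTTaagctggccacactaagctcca
RpS14a (chrX:7933672-7933771, plus strand): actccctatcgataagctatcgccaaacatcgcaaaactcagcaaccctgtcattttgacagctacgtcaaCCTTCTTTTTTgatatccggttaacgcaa
RpS14b (chrX:7934828-7934927, plus strand): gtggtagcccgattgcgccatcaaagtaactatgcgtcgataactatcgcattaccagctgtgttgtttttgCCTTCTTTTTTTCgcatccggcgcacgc
RpS15Aa (chrX:13337609-13337708, minus strand): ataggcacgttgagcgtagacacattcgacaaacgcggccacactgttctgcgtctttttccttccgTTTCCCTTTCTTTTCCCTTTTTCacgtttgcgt
RpS19a (chrX:16637824-16637923, plus strand): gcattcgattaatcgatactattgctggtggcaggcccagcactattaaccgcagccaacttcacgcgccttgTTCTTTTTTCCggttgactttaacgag
RpS19b (chr3R:23933501-23933600, minus strand): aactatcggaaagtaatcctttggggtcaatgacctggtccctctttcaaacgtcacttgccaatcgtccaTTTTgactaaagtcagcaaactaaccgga
RpS28b (chrX:9554553-9554652, plus strand): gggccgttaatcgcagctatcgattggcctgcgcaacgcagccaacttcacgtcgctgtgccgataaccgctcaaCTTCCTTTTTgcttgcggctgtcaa
RpS28a (chr3R:30022619-30022718, minus strand): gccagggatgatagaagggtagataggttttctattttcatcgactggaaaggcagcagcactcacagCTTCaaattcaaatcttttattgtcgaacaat
RpS5a (chrX:17148235-17148334, minus strand): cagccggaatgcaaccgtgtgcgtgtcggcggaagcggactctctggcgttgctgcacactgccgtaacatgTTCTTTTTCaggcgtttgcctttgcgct
RpS5b (chr3R:14901534-14901633, minus strand): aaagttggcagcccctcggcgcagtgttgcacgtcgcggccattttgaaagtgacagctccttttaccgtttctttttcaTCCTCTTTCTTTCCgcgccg

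In the promoters printed above, RpS27 has a run of 11 pyrimidines that begins at the TSS itself, and RpS15Aa has the longest, of 23. Its sister gene RpS15Ab, not printed, has a run of 5. The runs of RpS14a and RpS14b are 11 and 13 bases long. RpS10a, RpS19b and RpS28a have runs of only 3, 4 and 4 bases, compared with 15, 11 and 10 in their sister genes RpS10b, RpS19a and RpS28b. RpS5b departs from that order, since its run of 14 is longer than the 9 bases of RpS5a.

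The authors deposited 4 peak lists, 1 for each replicate, a pooled list of both, and a list of the 2445 peaks that passed their threshold on the irreproducible discovery rate (IDR), a measure of how alike peaks rank in the replicates. A promoter summit was a peak summit within 500 bp of any annotated TSS of a gene, and rank 1 is the peak of highest signal in a list. A promoter summit of the IDR list lay at 29 of the 39 small-subunit genes (74.4%), while 12.0% of all protein-coding genes had one. Large-subunit genes stood at 45 of 54 (83.3%), and mitochondrial small-subunit genes at 5 of 26 (19.2%). In the pooled list of 30000 peaks, 38 of the 39 genes had a promoter summit, beside 54.2% of protein-coding genes. RpS10a was the single member with no pooled promoter summit. Over all 39 genes, a gene without a summit being placed below the last rank, the median pooled rank was 978, against 354.5 for the 54 large-subunit genes, 12576.5 for the 26 mitochondrial genes and 23827 for all protein-coding genes. Among the 500 highest IDR peaks, 13 members were found (33.3%, beside 2.75% of protein-coding genes), and among the 1000 highest there were 21 (53.8%, beside 5.33%). No test of the members against other genes was made, so these are descriptions of the lists.

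RpS27, whose product is also called eS27, carried the highest peak of the group. Its peak (3R, 25247335 to 25247659, dm6) had a signal of 702.8 and rank 23, with signals of 427.4 in replicate 2 and 278.9 in replicate 3 and ranks of 19 and 26. Signals of the replicates are on scales of their own, so only ranks are set against each other. RpS25, whose protein is needed for initiation at some viral internal ribosome entry sites, followed with a signal of 481.5 and rank 78 (ranks 69 in replicate 2 and 79 in replicate 3). RpS4 had 473.7 and rank 83, with ranks 85 and 103. RpS27, RpS25 and RpS4 thus ranked from 19 to 103 in the replicates. They were picked by signal in the pooled list, which was made from both replicates, so their high ranks in each are not separate evidence.

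RpS10b, the widely expressed copy of its pair, had a signal of 434.9 (rank 115; 152 in replicate 2 and 81 in replicate 3). RpS18 had 408.3 (rank 139; 133 and 166 in replicates 2 and 3), and RpS3A, which lies on chromosome 4, had 379.3 (rank 163; 203 and 110). These 3 genes kept ranks of 81 to 203 in the replicates. RpS16 had a signal of 354.2 (rank 195; 309 in replicate 2 and 127 in replicate 3), and RpS5a 299.4 (rank 297; 522 and 181). RpS23, whose protein lines the decoding centre, had 276.4 (rank 360; 382 and 265), and RpS12, known in flies as a sensor of Minute mutations that acts through Xrp1, had 254.9 (rank 421; 468 and 441). All 4 of these genes ranked higher in replicate 3, with the smallest gap at RpS12. Each of these 10 peaks was narrower than the usual 380 bp, with widths of 95 to 325 bp. A width under 380 bp was seen at 13 of the 29 members' peaks, at 69.0% of the 500 highest IDR peaks and at 15.9% of all IDR peaks.

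**Figure D1:**
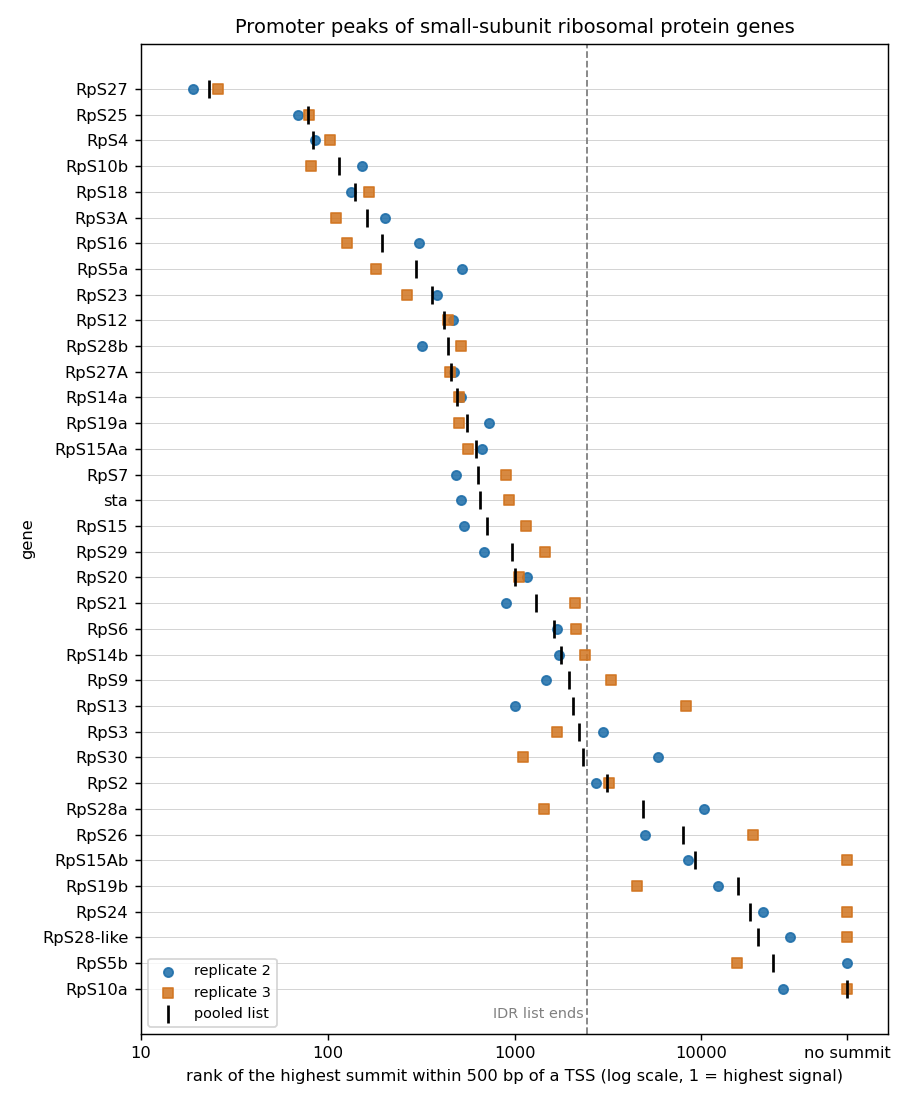
Rank of the highest promoter summit of 36 of the 39 small-subunit genes in replicate 2, replicate 3 and the pooled list, on a log scale with the highest rank at the left. The dashed line marks where the IDR list ends (rank 2445), and the 27 genes above RpS2 lie to its left in the pooled list, from RpS27 at 23 to RpS30 at 2326.

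The other 19 genes with an IDR summit had pooled ranks from 440 (RpS28b) downwards. Of these, RpS27A, RpS7, sta, RpS15, RpS29, RpS20 and RpS6 had ranks of 454, 633, 656, 708, 963, 999 and 1622. Their ranks differed by at most 770 between replicates, the gap at RpS29 (688 in replicate 2 and 1458 in replicate 3). RpS27A encodes a fusion of ubiquitin with a ribosomal protein, sta encodes the protein uS2, and RpS6 is the substrate of the S6 kinase. RpS21 had rank 1298 (901 in replicate 2 and 2115 in replicate 3). At the lower end of the IDR list stood RpS9, RpS13, RpS3 and RpS30, at ranks 1964, 2045, 2218 and 2326. RpS30 had a signal of 118.1, and the last peak of the IDR list had 115.4.

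Of the 39 genes, 10 had no IDR promoter summit. RpS2 was the nearest below, with a pooled signal of 103.8 and pooled rank 3109. It ranked 2709 in replicate 2 and 3193 in replicate 3, so its peak was moderate in each, and its pooled summit lay 13 bp from the TSS. RpS26 was lower, at pooled rank 8002 with 5007 in replicate 2 and 18978 in replicate 3, with its pooled summit 4 bp from the TSS. RpS24 had rank 18219 in the pooled list and 21366 in replicate 2, and no promoter summit in replicate 3. RpS2, RpS24 and RpS26 are each the only small-subunit gene of their number. A further 6 are by their symbols copies of another small-subunit gene, namely RpS5b, RpS10a, RpS15Ab, RpS19b, RpS28a and RpS28-like. RpS28-like had rank 20183 in the pooled list and 29938 in replicate 2, with summits 347 and 355 bp upstream of the TSS, and none in replicate 3.

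The 12 genes in pairs whose symbols differ only in a final a or b allow copies of the same protein to be set side by side. In flies RpS5b, RpS10a and RpS19b are known for expression biased to the germline, while RpS5a, RpS10b and RpS19a are broadly expressed. In 5 of the 6 pairs a single copy had an IDR summit. RpS5a stood at pooled rank 297 and RpS5b at 24107, with the summit of RpS5b 445 bp upstream of its TSS and no promoter summit for it in replicate 2. RpS10b stood at 115, whereas RpS10a had no pooled promoter summit and only rank 27412 in replicate 2. RpS15Aa stood at 619 (673 in replicate 2 and 566 in replicate 3), and RpS15Ab at 9279 (8452 in replicate 2, none in replicate 3). In these 3 pairs the copy with the IDR summit ranked higher in every list that held both.

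RpS19a stood at 556 (725 in replicate 2 and 501 in replicate 3), and RpS19b at 15744 (12220 and 4538), with the pooled summit of RpS19b 222 bp inside the gene, in coding sequence. RpS28b stood at 440 (320 and 519). RpS28a stood at pooled rank 4836 with a summit 240 bp upstream, and at 10374 in replicate 2. In replicate 3 it had rank 1441 with a summit 452 bp downstream of the TSS, which is 709 bp from that of replicate 2. RpS28a spans 30022345 to 30022648 on the minus strand, so the replicate 3 summit, at 30022196, lay past the 3′ end of the gene. An IDR peak of rank 2127 had its summit 509 bp downstream of the RpS28a TSS, beyond the window and farther past that 3′ end. The copies with an IDR summit in these 5 pairs all lie on the X chromosome, and the copies without one lie on autosomes. The sixth pair, RpS14a and RpS14b, is a tandem duplication on the X chromosome with starts 1156 bp apart. Each of its copies had a summit of its own, RpS14a at rank 491 (517 and 502 in replicates 2 and 3) and RpS14b at rank 1773 (1725 and 2379). All 266 words of 36 bases within 150 bp of the TSS occurred once on the chromosome arms for each of the 39 genes, so no exact repeat of such a word was found elsewhere on the arms. The read length is not given in the sources used here.

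Replicate ranks of the members were compared over equal numbers of peaks. Among the 2445 highest peaks, 27 members had a promoter summit in replicate 2 (12.2% of protein-coding genes did) and 27 in replicate 3 (12.1%). Of the members 24 were found in both (61.5%, beside 8.6% of protein-coding genes), 3 in replicate 2 only (RpS9 and RpS13 among them), 3 in replicate 3 only (RpS3, RpS30 and RpS28a) and 9 in neither. RpS28a counts here through the summit past its 3′ end. In the full lists of 30000 peaks, 38 members had a promoter summit in replicate 2 and 35 in replicate 3, beside 53.3% of protein-coding genes in each, and 34 had one in both, beside 43.6%. Over these 34 genes the ranks in replicates 2 and 3 had a Spearman correlation of 0.87, and over the 6082 protein-coding genes with a summit in both it was 0.65. Both values run across genes, which are not independent replicates, and the replicates were called against the same control alignment. The 2 sets also lay at unlike ranks. In replicate 2 the median rank was 813 over the 38 members with a summit and 6486 over 7436 such protein-coding genes. No comparison at equal ranks was made, here or for the summit gaps below.

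The ranks of 9 members differed by over 1000 between replicates. RpS13 had 1002 and 8287, and RpS9 had 1467 and 3275 in replicates 2 and 3. Both genes ranked higher in replicate 2. RpS30, whose product is a fusion with a ubiquitin-like protein, showed the opposite, with 5874 in replicate 2 and 1111 in replicate 3, and RpS3 had 2978 and 1688. RpS21, RpS26, RpS19b and RpS28a, whose ranks are given above, were also among the 9. At RpS19b and RpS28a the replicate summits lay 582 and 709 bp apart, so their ranks belong to different peaks. Whether the 2 collections of embryos differed in age or in cell makeup was not tested. The replicate summits of the members had a median gap of 27.5 bp over the 34 genes, with 67.6% within 50 bp, beside 65.5 bp and 43.8% over the 6082 protein-coding genes.

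**Figure D2:**
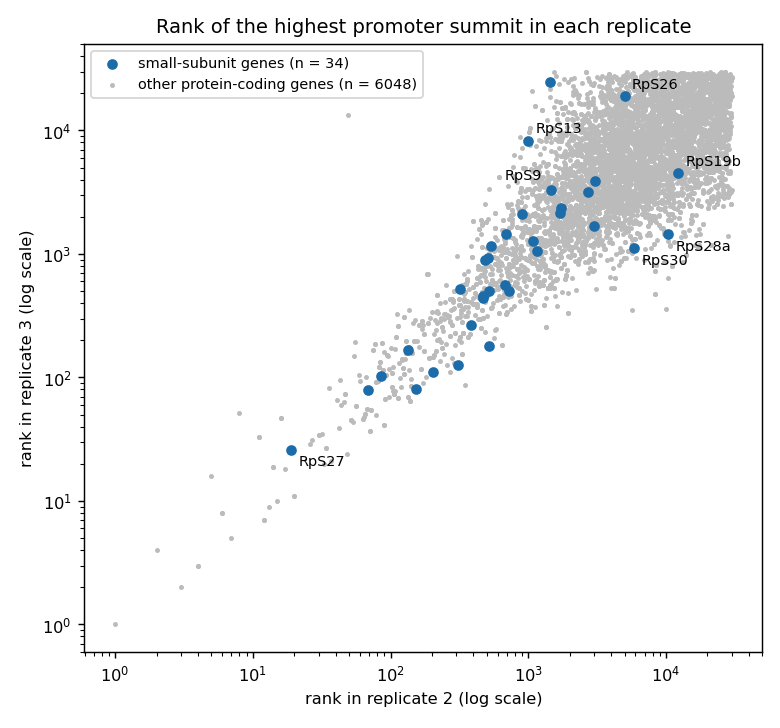
Rank of the highest promoter summit in replicate 2 (horizontal) and replicate 3 (vertical), both on log scales, for the 34 small-subunit genes and the other protein-coding genes with a summit in both lists, which make 6082 in all. The high-ranking members lie along the diagonal, and RpS13 and RpS26 lie above it, with RpS30, RpS19b and RpS28a below.

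The members' summits lay close to the TSS. Measured from the nearest annotated 5′ end, the median position over the 29 genes was -8 bp, with quartiles of -26 and 3 bp and a range from -188 to 86 bp. A summit within 50 bp of the TSS was found at 24 of 29 members (82.8%), at 38 of 45 large-subunit genes (84.4%) and at 20.3% of the 1678 protein-coding genes with an IDR promoter summit. The median position was -14 bp in large-subunit genes and -117 bp over all 1678 genes. When a summit counted only for the gene of its nearest TSS, the shares within 50 bp were 85.7% of 28 members and 28.6% of 1185 protein-coding genes. With only the outermost 5′ end of each gene they were 62.1% of members and 18.5% of 1497 protein-coding genes. The closeness of the summits to the TSS was therefore seen under each of these assignments.

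The side of the TSS was less clear. Of the 29 summits, 18 lay upstream (62.1%), beside 83.8% over the 1678 protein-coding genes, but with only the outermost 5′ end 12 lay upstream and the median position was 10 bp. Summits lay outside the gene in 12 cases, in untranslated exon sequence in 15 and in an intron in 2, of which RpS9 had the summit farthest downstream of all 29, at 86 bp. RpS20 had the most distant summit, 188 bp upstream in both the pooled and the IDR list, at 189 and 183 bp upstream in replicates 2 and 3. RpS25 was the only member among the 10 highest with a summit over 50 bp away, at 81 bp upstream.

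**Figure D3:**
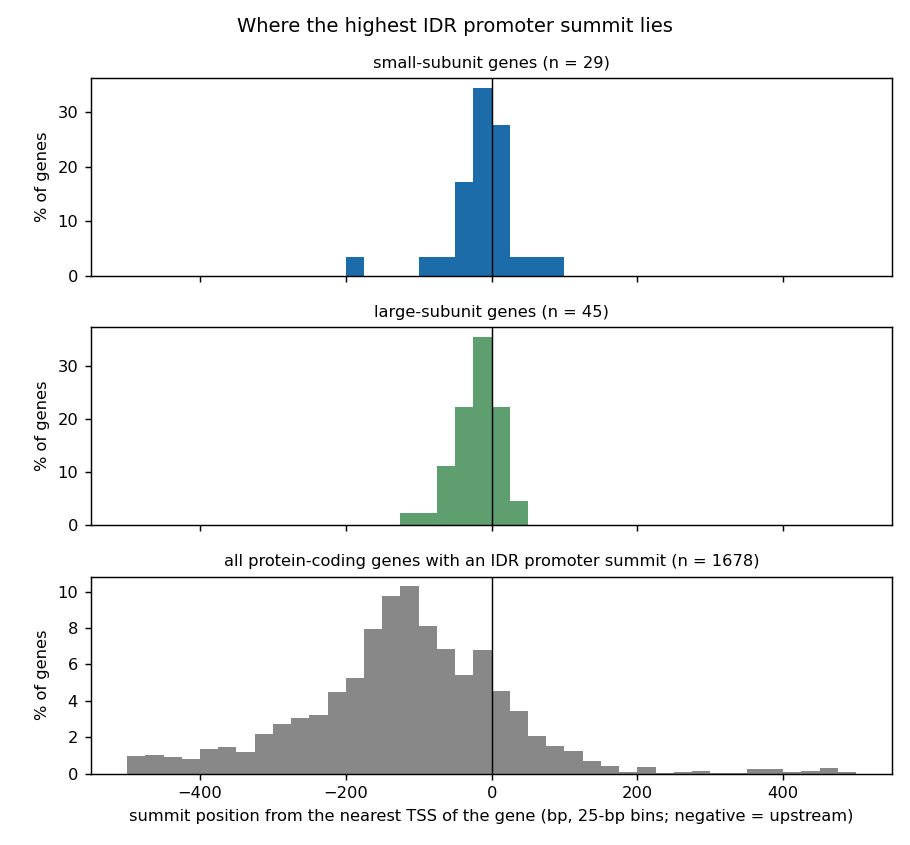
Position of the highest IDR promoter summit from the nearest TSS of its gene, in bins of 25 bp with negative values upstream, as a share of the 29 small-subunit genes, 45 large-subunit genes and all 1678 protein-coding genes with such a summit. Summits of both ribosomal groups lie around the TSS, with medians of -8 and -14 bp, and those of all genes spread upstream around a median of -117 bp.

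A summit can lie within 500 bp of several genes, so the members' peaks were checked for sharing. Of the 29 summits, 15 were shared with another gene (51.7%, beside 62.6% of the 1678 protein-coding genes). In 11 cases the other gene was a protein-coding gene on the opposite strand, and for 10 of these the summit was nearer to the TSS of the ribosomal protein gene. RpS27 shared its summit with Nup37, a nuclear pore gene (170 bp from the summit), RpS18 with plu, a regulator of the cell cycle in early embryos (311 bp), and RpS14a with Dhdds (352 bp). The RpS27 summit also lay 66 bp from the TSS of sisRNA:CR46364, a non-coding gene on the same strand. RpS19a shared with Rok (474 bp), RpS16 with CG4294 (426 bp) and RpS21 with CG3104 (349 bp). At sta the other gene was inc, known for its role in sleep (145 bp), and at RpS25 it was CG4820 (167 bp). In these 8 cases the ribosomal protein gene had the nearer TSS.

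For RpS13 the other gene was CSN8, a subunit gene of the COP9 signalosome, with 63 bp to the TSS of RpS13 and 130 bp to that of CSN8. These distances are those of the IDR summit. The RpS13 summit lay 42 bp upstream of its TSS in replicate 2 and 132 bp upstream, towards CSN8, in replicate 3. Among the IDR summits RpS20 was the exception, since its summit lay 188 bp from its own TSS and 145 bp from that of CG17271. RpS27A shared with Ip259, which is annotated on the same strand with its start the same 6 bp from the summit. Non-coding genes alone shared the summits of RpS12 and RpS29 (a snoRNA gene on the same strand each) and of RpS6 (a pseudogene and a snoRNA). Among the genes with no IDR summit, the pooled summit assigned to RpS28a lay 46 bp downstream of the TSS of Axn, a gene of the Wnt pathway, and that of RpS15Ab lay 77 bp from Lsm10. When a summit counted only for its nearest TSS, RpS20 alone was lost and 28 members kept an IDR summit.

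The proteins were also divided by whether they have relatives in bacteria (universal, uS) or in eukaryotes and archaea only (eS). An IDR summit lay at 14 of 18 universal (77.8%) and 15 of 20 eukaryotic members, with median pooled ranks of 981 and 805.5. RpS28-like was placed in neither class. The classes overlapped over nearly their whole range, from rank 23 (RpS27, eS) and rank 139 (RpS18, uS) downwards.

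To see which sequences the promoters share, known core promoter motifs were sought by exact match from 250 bp before to 50 bp after each annotated TSS. Windows of 30 bases are printed next for the 4 members with a DRE within 50 bp of the IDR summit, and for sta with the M1BP motif, 5′ to 3′ on the strand of the gene, in dm6 from RefSeq. Capitals mark the motif.
RpS25, DRE (chr3R:11216328-11216357, minus strand): ccaccaccaacTATCGATAggcaggcgagc
RpS14a, DRE (chrX:7933667-7933696, plus strand): gacacactcccTATCGATAagctatcgcca
RpS29, DRE (chr3R:9778046-9778075, plus strand): atcgtggaaaaTATCGATActgccaccccc
RpS6, DRE (chrX:7901368-7901397, minus strand): tgagcacgaacTATCGATAtgcggcggtac
sta, M1BP motif (chrX:1483406-1483435, minus strand): actgattctcaGTGTGACCgctctgcgtcg

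The DRE (TATCGATA, its own reverse complement) was found at 13 of 39 members (33.3%), at 15 of 54 large-subunit genes (27.8%) and at 10.2% of all protein-coding genes. Its centre lay 25 bp from the summit at RpS25, 21 bp at RpS14a, 11 bp at RpS29 and 31 bp at RpS6. Within 50 bp of the 29 summits these were the only 4, or 13.8%, beside 4.39% of the 1162 IDR summits at protein-coding promoters. Within 100 bp there were 9 (31.0%, beside 9.47%). The M1BP motif (GGTCACAC, both strands) was found at 6 members (15.4%, beside 18.5% of large-subunit genes and 8.71% of protein-coding genes), RpS9, RpS15, RpS23 and sta among them. All 6 had an IDR summit, as did 11 of the 13 members with DRE and 29 of all 39 members. The M1BP motif lay 5 bp from the summit at RpS15 and 87 bp at sta. The members with DRE in this window and those with the M1BP motif in it were different genes.

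At the TSS itself, the TCT initiator was sought on the sense strand as the word CCTTTTT, as the word CCTTTCT, or as either word with T for its first letter. The C that precedes the run of T had to lie at most 10 bp from an annotated TSS. It was present at 20 of 39 members (51.3%), at 20 of 54 large-subunit genes (37.0%), at none of the 26 mitochondrial small-subunit genes and at 1.4% of protein-coding genes. The common initiator (TCAGT or TCATT, in the same place) was present at 1 member (2.56%), RpS21, and at 23.6% of protein-coding genes. RpS21 had the TCT initiator as well. A run of at least 8 pyrimidines, a looser measure chosen after the sequences had been seen, began at most 10 bp from a TSS at 30 members (76.9%), at 87.0% of large-subunit genes, at 11.5% of mitochondrial genes and at 6.43% of protein-coding genes. Over all genes, with or without such a run, the longest run that began there had a median of 11 bases in members and 4 in all protein-coding genes. The TCT words are themselves runs of pyrimidines, so these counts are not independent of each other. Genes with several annotated 5′ ends had more chances to match.

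Among the 29 members with an IDR summit 26 had a run of at least 8, and among the 10 without one 4 did (RpS5b, RpS24 and RpS26 among them). RpS5b, RpS24 and RpS26 also had the TCT initiator, at pooled ranks of 24107, 18219 and 8002, so the pyrimidine start was present at members with low-ranking peaks too. Conversely RpS12 and sta had runs of 5 and 5 bases and no TCT initiator, at ranks of 421 and 656. RpS25, at rank 78, had a run of only 7 bases but did have the TCT initiator. No test was made of the relation between run length and rank.

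The core of promoter motif 6 (GTATTT, both strands), which was added after the sequences had been seen, was found at 23 members (59.0%), at 27 of 54 large-subunit genes and at 38.9% of protein-coding genes. The TATA box was sought only as the word TATAAA, on either strand and anywhere from 250 bp before to 50 bp after a TSS. With no set distance from the TSS required, the word was found at 53.8% of member promoters and 51.2% of all protein-coding promoters. Within 50 bp of the summit it was found at 1 of the 29 members (3.45%), at 4 of 45 large-subunit genes (8.89%) and at 23.1% of the 1162 IDR summits. GC content in these windows of 50 bp to either side had a median of 45.5% at the members, 45.5% at large-subunit genes and 33.7% over the 1162 summits. The part of GC content in these TATA box counts was not tested. The Zelda site (CAGGTAG), bound by the early activator of zygotic genes, was found at no member promoter and at 2.3% of protein-coding promoters, and GAGAGAG at 1 member (RpS19a; 2.56%, beside 9.08%).

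**Figure D4:**
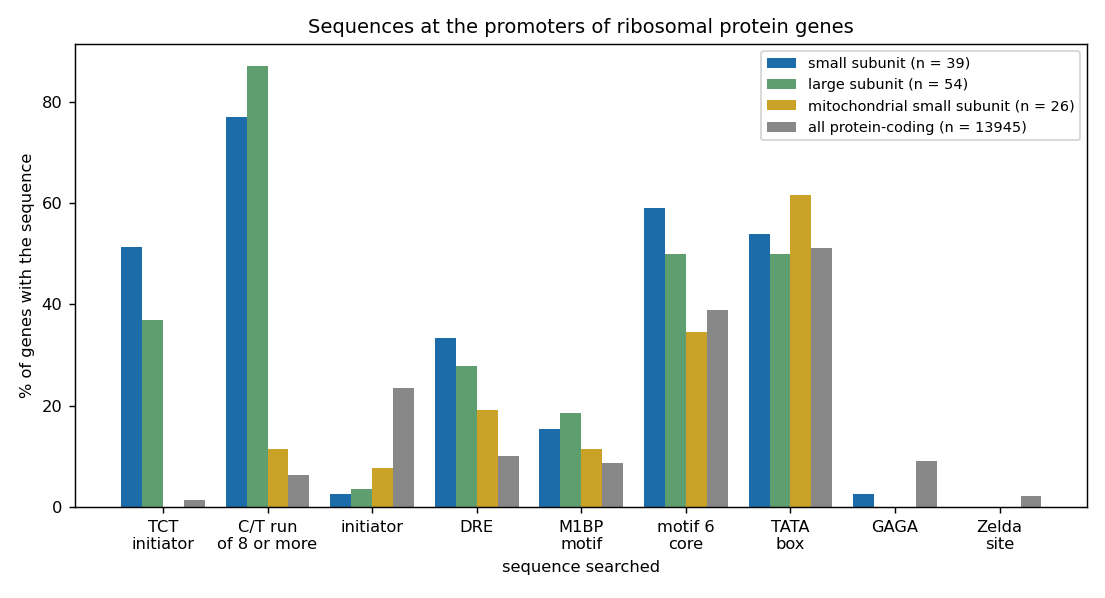
Share of genes with each sequence at a promoter or TSS, as bars from 0, for 39 small-subunit, 54 large-subunit and 26 mitochondrial small-subunit genes and all 13945 protein-coding genes. The TCT initiator stands at 51.3% of small-subunit genes and 1.4% of all genes. The TATA box, counted as the word TATAAA on either strand anywhere in the promoter window, stands at 53.8% and 51.2%.

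Genes that act with the small subunit were listed separately. Of 11 partners and assembly factors 3 had an IDR promoter summit (27.3%, beside 12.0% of all protein-coding genes). Rack1, which encodes a scaffold protein of the small subunit outside the RpS names, had rank 168 and a signal of 374.9, with its summit 9 bp from the TSS and shared with mts. Its ranks were 125 in replicate 2 and 309 in replicate 3. Fib, the methyltransferase fibrillarin of snoRNA particles, had rank 891 with CG3085, and RIOK2, a kinase of small-subunit maturation, had 1493 with GlnRS. The summit of RIOK2 lay at -125 bp from its own TSS and at 2 bp from that of GlnRS. Those without one included Nop56 (pooled rank 8816), nop5 (3074) and wcd (9915). Among these 11 genes Rack1 and Fib had IDR summits within 50 bp of the TSS, at 9 and 21 bp, as most ribosomal protein genes did.

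Of 9 regulators linked to ribosomal protein genes or to growth, 5 had an IDR promoter summit (55.6%, beside 12.0% of all protein-coding genes). Dref, whose product binds the DRE, had rank 182, with a summit shared with RpL13. That summit lay at -95 bp from the TSS of Dref and at -6 bp from that of RpL13. Irbp18, which encodes the partner of Xrp1, had rank 1102, at -287 bp, shared with APP-BP1 (61 bp). Max had 1369, at -144 bp, shared with Mettl5 and CG42374 (-76 bp each). M1BP had 1609, at -173 bp, shared with CG8202 (-220 bp), and Trf2 had 1661, at -16 bp and unshared. The summits of Dref, Irbp18 and Max thus lay nearer to the TSS of another gene than to their own. Xrp1 itself, Myc, mTor and S6k had pooled ranks of 5579, 6063, 2640 and 5782 and no IDR summit.

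By chromosome arm, an IDR promoter summit lay at all 9 members on X, beside 193 of 2196 protein-coding genes of that arm. It lay at all 4 members on 3L, beside 357 of 2739 genes, and at RpS3A on chromosome 4, beside 9 of 80 genes. The counts were 8 of 12 members on 3R, beside 462 of 3421 genes, 4 of 7 on 2R, beside 301 of 2852, and 3 of 6 on 2L, beside 356 of 2657. The count on X includes the 5 copies named above and both genes of the RpS14 pair. With 1 to 12 members on an arm, nothing was read from the differences between arms.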

How the data were processed

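Binding of CG7271-GFP in whole embryos was measured by ChIP-seq in 2 replicates of 1 group. Per the labels, chromatin was sonicated to 200 to 800 bp. Per the deposited notes, the authors called each replicate's list from its own alignment and a shared control, made the pooled list from both replicates, and derived the IDR list from those 3. The deposited signal is the authors' value for a peak, of unstated scale, so it served only for ranking inside a list. The deposited −log10 q values were not used, since in the pooled list they reach at most 3.70, a value that 2493 peaks share. Which peak caller, aligner and IDR threshold the authors chose is not given in the sources used here. All 2445 IDR peaks were the 2445 highest of the pooled list. In 98.8% of pooled peaks the summit was the peak's centre. Read depth is unknown.

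Gene models came from Ensembl release 115 for the major chromosome arms, without transposable elements (23584 annotated 5′ ends). Coordinates are 1-based dm6, and bases were read from RefSeq's version of that assembly. The step that gives summits to genes was tested on simulated data. Python 3.11.15 and pandas 2.3.3 were used. With 1 group, no test was made, and counts stand beside those of all protein-coding genes. The members and lists were chosen with earlier results of these data known. Named with full values are the 10 members of highest signal, those without an IDR summit, the pairs, and those whose replicate ranks differ by over 1000. A few members are counted in every total but not reported here by name. Other members were singled out after their values were seen. Of 13 partner symbols 11 matched the annotation. Alternatives covered the window, the 5′ ends, the peak list and the motif window.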

Additional observations from a re-analysis of the deposited data

How the results depend on the processing

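Of 51 alternative values, 32 stayed within 1.5 times the main count or within the spread between replicates, and 19 moved. The number of members with an IDR promoter summit, 29, was 21 to 30 under all settings tried. From a single replicate, without replicate 2 or without replicate 3, it was 27 in each case, and the median rank of the members' summits was 519 and 517 where both replicates gave 619. That median was 626 with summits within 1000 bp, 440 among the 1222 IDR peaks of highest signal, which hold no lower ranks, and 587.5 with the nearest TSS only. The median position of -8 bp was 10 bp with only the outermost 5′ end, -16 bp among those 1222 peaks, and -9 to -14 bp when a replicate was left out. Summits shared with another gene, 15, were 8 within 200 bp, 25 within 1000 bp and 1 with the nearest TSS only, which follows from the windows. Within 50 and 100 bp of a summit in place of the whole promoter, the TATA box was found at 1 and 4 members, DRE at 4 and 9, the M1BP motif at 2 and 4, GAGAGAG at 0 and 0, and the motif 6 core at 7 and 12. These windows are shorter and leave out the 10 members with no IDR summit. With 1 group, no paired analysis was possible because there is no second group to pair.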
